A study of Mus musculus with 6 samples.

Results

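The mitochondrial carrier family, named Slc25a in the mouse, was followed in the liver of high-fat-fed mice given the GLP-1 receptor agonist liraglutide. Its members were the genes of the count table whose symbol is Slc25a followed by a number, with Slc25a1, Slc25a17 and Slc25a20 left out. This gave 44 members among 23412 genes. Of these, 41 had at least 10 counts summed over the 6 libraries and are described here, and 38 passed the filter on low counts and were tested. Both groups were livers of C57BL/6J mice labelled as 8 weeks old, kept on a high-fat diet for 4 weeks. The HFD_Lira3d group then received subcutaneous liraglutide at 300.0 µg/kg for 3 days, and the HFD_PBS3d group received PBS for 3 days. Each group had 3 libraries, called Lira161, Lira162 and Lira164, and PBS155, PBS157 and PBS158, after their columns in the count table. The labels give neither the sex nor whether each library came from a separate mouse, so a p-value here reflects how far the libraries differ among themselves, and that spread may be technical. Liraglutide is known to reduce food intake, and the effects of eating less and of the drug itself cannot be told apart in this design.

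Slc25 carriers are small membrane proteins, nearly all of them in the inner mitochondrial membrane, that move metabolites, nucleotides, cofactors and ions between the cytosol and the matrix. In hepatocytes they feed the urea cycle, gluconeogenesis, oxidative phosphorylation and one-carbon metabolism, all of which are split between these compartments. Several carriers occur as paralog sets with the same substrate but different calcium dependence or tissue distribution, and some members have no settled substrate.

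Library totals ran between 20888991 and 27007182 counts, and the 3 counts taken as a detection floor correspond to between 0.111 and 0.144 CPM (counts scaled to a fixed library total), for counting error only. CPM below are scaled with trimmed-mean (TMM) factors. All 8 hepatocyte markers were present, at a summed 73741 to 90262 CPM in the liraglutide libraries and 84696 to 106257 CPM in the PBS libraries. Most of each sum was Alb. Of these markers, Hnf4a rose (log2 fold change 0.53 ± 0.13, edgeR adjusted p = 0.0338) and Fah fell (-0.43 ± 0.11, adjusted p = 0.0451). In whole liver, fewer cells of a type and less RNA per cell cannot be told apart. The liraglutide and PBS ranges of the summed markers overlapped for Kupffer cells or macrophages, stellate cells or fibroblasts, neutrophils, skeletal muscle and exocrine pancreas. Kupffer cell or macrophage markers summed to 136 to 211 CPM under liraglutide, against 245, 99.5 and 62.2 CPM in PBS155, PBS157 and PBS158. They overlapped through PBS155 alone, and their median log2 fold change was 0.45, with 0 of 7 called. Stellate cell or fibroblast markers summed to 294 to 347 CPM under liraglutide, against 288, 307 and 183 CPM in the same PBS libraries. These overlapped through PBS157 alone. Endothelial markers summed to 161.2 to 255 CPM in the liraglutide libraries, against 181, 107 and 94.6 CPM in PBS155, PBS157 and PBS158, so these groups overlapped through PBS155 alone. The median log2 fold change of the 6 endothelial markers was 0.74, all 6 were above 0, and Clec4g rose (0.78 ± 0.17, adjusted p = 0.0250). The Clec4g call was lost without Lira161 (adjusted p = 0.0605), Lira162 (0.0553), PBS157 (0.0768) or PBS158 (0.0884). The summed ranges did not overlap for cholangiocytes (26.6 to 28.6 against 42.0 to 50.9 CPM), lymphocytes (2.96 to 4.10 against 4.32 to 4.98 CPM), adipocytes (0.193 to 0.4999 against 0.599 to 2.05 CPM) and the erythroid list described below. Single genes made up most of these gaps. They were Spp1 (20.5 ± 1.17 CPM under liraglutide, 36.3 ± 4.01 CPM under PBS), Cd4 (0.599 ± 0.246 CPM under liraglutide, 2.33 ± 0.455 CPM under PBS) and Cfd (0.210 ± 0.179 CPM under liraglutide, 1.18 ± 0.765 CPM under PBS). Yet all 5 tested cholangiocyte markers had a log2 fold change below 0, with a median of -0.37, and 1 of them, Spp1, was called. The T cell markers Cd3e (0.452 CPM under liraglutide, 0.106 CPM under PBS), Cd3d (0.325 CPM under liraglutide, 0.160 CPM under PBS) and Cd8a (0.158 CPM under liraglutide, 0.106 CPM under PBS) were on the other side from Cd4, at too few counts to be tested. Whether the other cells have a part in the carrier results was not tested.

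Of the 38 tested carriers, 6 rose and 2 fell under liraglutide at an adjusted p under 0.05 (edgeR quasi-likelihood test, Benjamini-Hochberg adjustment over 12626 genes). The carriers that rose were Slc25a47, Slc25a34, Slc25a30, Slc25a22, Slc25a32 and Slc25a33, and those that fell were Slc25a23 and Slc25a35. The share of carriers that rose was 15.8%, beside 4.08% of all tested genes, and the share that fell was 5.26%, beside 4.69% of all tested genes. In either direction 21.1% of the carriers passed, beside 8.77% of all tested genes. The groups did not overlap in 18 of the 38 carriers, or 47.4%, beside 31.3% of all tested genes. The fold change was above 0 on the log2 scale in 24 carriers and below 0 in 14, with a median of 0.11 beside 0.01 over all tested genes. Scaling by library totals left 12 carriers below 0 and shifted the median of all genes by 0.05. That scaling also raised the share of higher calls among all called genes to 57.2%, against 46.5% with TMM. Among the 30 carriers that did not pass, 25 had a fold change below 1.3 in either direction.

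**Figure D1:**
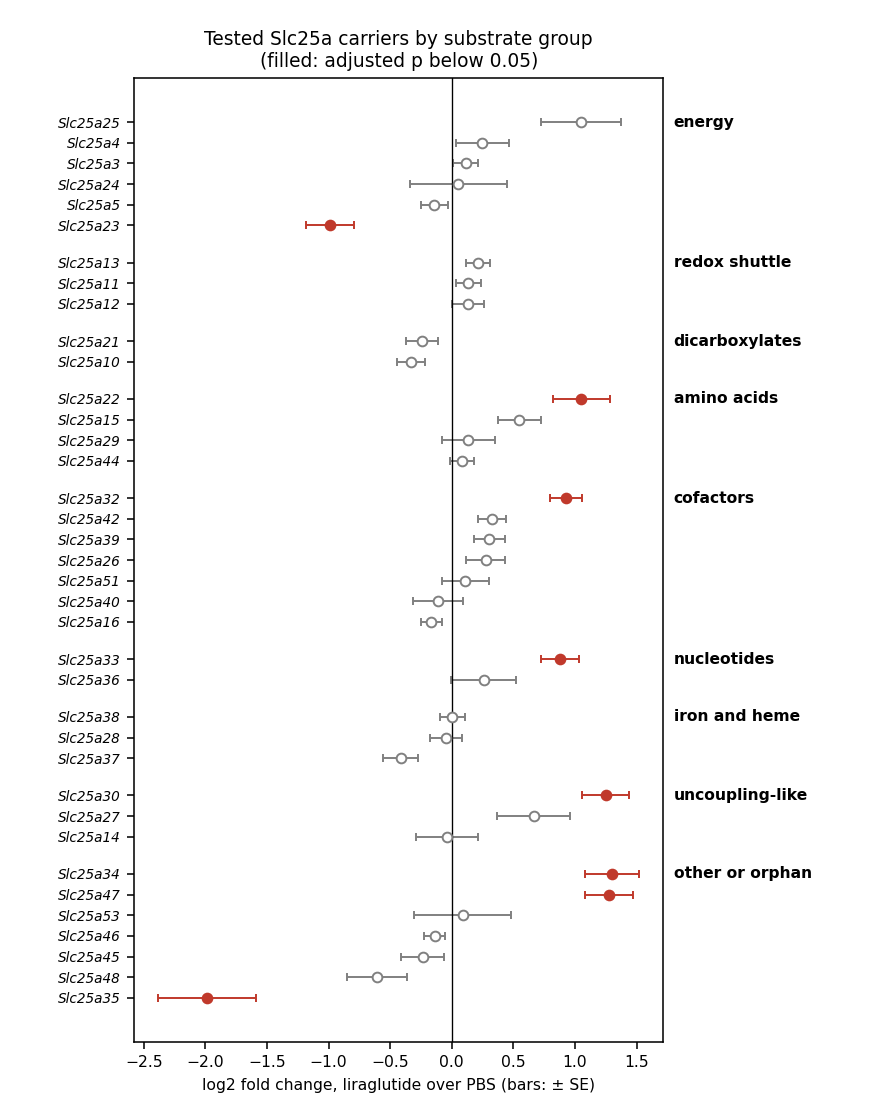
The log2 fold change (liraglutide over PBS, horizontal axis) of 37 of the tested carriers, grouped by substrate, with bars of ± 1 SE and filled points for an adjusted p under 0.05. The 8 filled points lie in 6 of the substrate groups, 6 of them right of 0 and 2 left of it.

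Levels were compared between genes per kilobase of exon, as mean TMM-scaled CPM. Slc25a47, a member enriched in liver whose substrate is under debate, stood highest, at 523 CPM per kilobase in the liraglutide group and 216 in the PBS group. Next came Slc25a5, the ADP/ATP translocase of most tissues, at 207 in the liraglutide group and 228 in the PBS group, a pair of levels close to that of Slc25a47 in PBS livers. Slc25a39, which takes glutathione into mitochondria, had 163 in the liraglutide group and 132 in the PBS group. Slc25a13 (citrin), the aspartate/glutamate carrier of liver, had 111 in the liraglutide group and 95.5 in the PBS group. Its paralog Slc25a12 (aralar) had 2.26 in the liraglutide group and 2.07 in the PBS group. In all, 17 tested carriers averaged at least 10 CPM per kilobase over the 6 libraries and 7 averaged below 1.

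**Figure D2:**
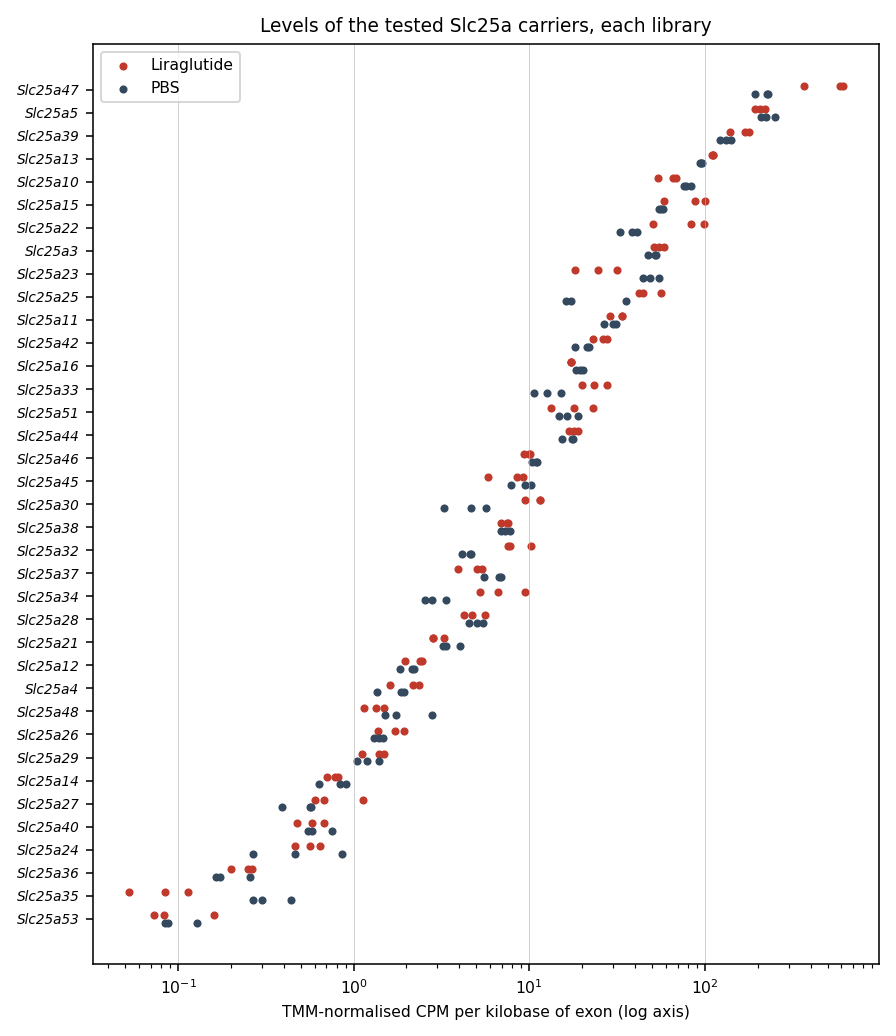
Level of 37 of the tested carriers in each library, as TMM-scaled CPM per kilobase of exon on a log axis, ordered by the mean over the 6 libraries, with liraglutide libraries in red above PBS libraries in dark blue. The range runs between Slc25a47 and Slc25a53, and Slc25a47 in liraglutide livers lies above every other carrier.

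Of the 6 tested carriers of energy metabolism, 1 passed, Slc25a23. Slc25a23 and Slc25a25 both exchange ATP-Mg for phosphate under the control of calcium and so set the adenine nucleotide content of the matrix. Slc25a23 fell: it had 131, 96.4 and 168 CPM in Lira161, Lira162 and Lira164, against 292, 235 and 257 CPM in PBS155, PBS157 and PBS158. Every liraglutide library was below every PBS library. The log2 fold change was -0.99 ± 0.19 (SE, n = 3 each; edgeR adjusted p = 0.0197), a level 1.98-fold lower. The call was lost without Lira161 (adjusted p = 0.0770), PBS155 (0.0521) or PBS158 (0.0663), and over all alternatives the adjusted p lay between 1.09e-05 and 0.0770.

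Slc25a25 had 348, 332 and 445 CPM in the liraglutide libraries and 281, 135 and 127 CPM in PBS155, PBS157 and PBS158. The groups did not overlap, but PBS155 stood apart from the other PBS libraries. With all libraries the log2 fold change was 1.05 ± 0.33 and did not pass (edgeR adjusted p = 0.104). Without PBS155 it was 1.503 (adjusted p = 0.00543), limma-voom called it with all libraries (adjusted p = 0.0426), and the alternatives ranged up to 0.237. The same library had the highest summed Kupffer cell or macrophage markers, 245 CPM against 99.5 and 62.2 CPM in PBS157 and PBS158. Lira161, Lira162 and Lira164 had 210, 136 and 211 CPM, all above PBS157 and PBS158. The part of these cells in the Slc25a25 difference was not tested. The counts of Slc25a23 were 0.375, 0.290 and 0.378 times those of Slc25a25 in Lira161, Lira162 and Lira164, against 1.04, 1.73 and 2.02 times in PBS155, PBS157 and PBS158. Slc25a25 was therefore the more counted of the pair in all liraglutide libraries, and Slc25a23 in all PBS libraries. The log2 ratio averaged -1.53 ± 0.22 in the liraglutide group and 0.62 ± 0.50 in the PBS group (SD, n = 3 each), a difference of -2.16 that does not depend on scaling. The exact two-sided permutation p was 0.10, the smallest that 3 against 3 libraries allow, and 0.18 after adjustment over 9 pairs. The paralog Slc25a24 was low, at 1.91 ± 0.31 CPM in the liraglutide group and 1.81 ± 1.03 CPM in the PBS group. Slc25a41, also placed with the carriers of energy metabolism, had no count in any library.

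**Figure D3:**
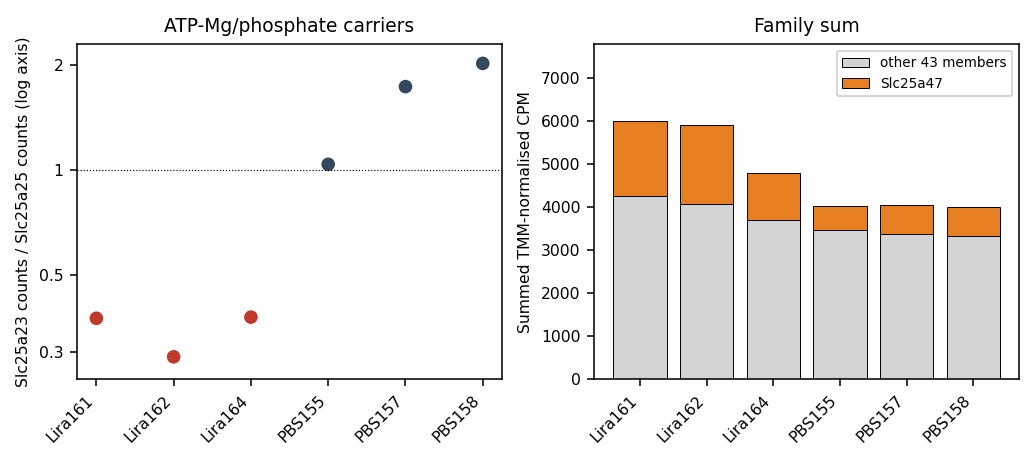
Left, Slc25a23 counts divided by Slc25a25 counts in each library on a log axis, below 1 in all 3 liraglutide libraries and above 1 in all 3 PBS libraries. Right, the summed TMM-scaled CPM of the family per library, split into Slc25a47 and the other 43 members.

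A RefSeq promoter window of each of these paralogs (GRCm38.p6, 250 bases before to 50 after an annotated start, printed 5′ to 3′ on the gene's strand) is shown because the more counted of the pair differed between the groups. Capitals mark a cAMP response element (CRE) half-site, a CCAAT box, an E-box, a nuclear receptor half-site or a FOXO motif, in either orientation. The letters searched are given with the shares of windows that hold them.
Slc25a25, chr2:32424017-32424316, minus strand: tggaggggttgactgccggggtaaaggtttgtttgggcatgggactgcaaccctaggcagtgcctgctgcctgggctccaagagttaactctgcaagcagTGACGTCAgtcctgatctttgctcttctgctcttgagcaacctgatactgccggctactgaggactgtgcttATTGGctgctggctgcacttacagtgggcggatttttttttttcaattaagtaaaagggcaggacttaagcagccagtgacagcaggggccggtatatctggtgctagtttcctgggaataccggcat
Slc25a23, chr17:57059793-57060092, minus strand: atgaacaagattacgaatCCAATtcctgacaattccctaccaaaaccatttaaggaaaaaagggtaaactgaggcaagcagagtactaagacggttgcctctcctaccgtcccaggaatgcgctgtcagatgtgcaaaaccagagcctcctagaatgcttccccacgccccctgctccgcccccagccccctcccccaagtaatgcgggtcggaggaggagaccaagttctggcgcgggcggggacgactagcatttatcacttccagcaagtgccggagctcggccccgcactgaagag
The first of these, 1 of 3 windows of Slc25a25, holds a full CRE (TGACGTCA), starting 150 bases before the start. This CRE contains the CRE half-site on each strand. It is in no other window of Slc25a25, and those hold CCAAT boxes. The printed window lies inside the annotated span of the gene (32414487 to 32451445). A full CRE is in 1.79% of all 32851 RefSeq windows, and among the 31 described carriers with a window, Slc25a25 and Slc25a36 do. The Slc25a23 window, 1 of 2 largely overlapping windows, holds a CCAAT box, searched by those letters, as do 37.4% of all windows.

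The carriers at the ATP synthase did not pass. Slc25a5 had 339.6, 362 and 319 CPM in the liraglutide libraries and 343, 369 and 413 CPM in the PBS libraries, with a log2 fold change of -0.14 ± 0.11 (adjusted p = 0.469). Slc25a3, which brings phosphate and also copper into the matrix, had 303, 324 and 285 CPM in the liraglutide libraries and 263, 288 and 292 CPM in the PBS libraries (0.11 ± 0.10, adjusted p = 0.530). The groups overlapped for both. Slc25a4, the translocase of heart and muscle, averaged 4.82 ± 0.90 CPM in the liraglutide group and 4.05 ± 0.73 CPM in the PBS group (adjusted p = 0.512). Skeletal muscle markers summed to 0.666 to 1.54 CPM in the liraglutide libraries and 0.403 to 0.985 CPM in the PBS libraries, with Ckm and Myh4 at 0 throughout. Slc25a31, the testis translocase, had 2, 1 and 2 counts in the liraglutide libraries and 0, 11 and 1 in the PBS libraries and was not tested. Reads shared by close copies such as Slc25a4, Slc25a5 and their pseudogenes make these counts uncertain, since the rule for assigning such reads is not stated in the labels or the processing notes.

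The carriers of the malate-aspartate shuttle, which passes the electrons of cytosolic NADH into the matrix, had small differences. Slc25a13 had 415, 423 and 424 CPM in the liraglutide libraries, against 362, 368 and 358 CPM in the PBS libraries. Its groups were narrow and did not overlap, yet the log2 fold change of 0.21 ± 0.10 did not pass (adjusted p = 0.200). Slc25a11, the 2-oxoglutarate/malate carrier, had 71.4, 71.7 and 61.0 CPM in the liraglutide libraries and 56.7, 63.3 and 65.9 CPM in the PBS libraries (0.13 ± 0.10, adjusted p = 0.453). For Slc25a12 the log2 value was 0.13 ± 0.13 (adjusted p = 0.565). The dicarboxylate carrier Slc25a10, which exchanges malate or succinate for phosphate, had 236, 188 and 228 CPM in the liraglutide libraries and 268, 264 and 287 CPM in the PBS libraries. All liraglutide values were the lower ones, with a log2 fold change of -0.33 ± 0.11 that did not pass (adjusted p = 0.107). Slc25a21, the 2-oxoadipate carrier of lysine and tryptophan breakdown, had 14.5 ± 1.29 CPM in the liraglutide group and 17.2 ± 2.20 CPM in the PBS group (adjusted p = 0.271).

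Among the amino acid carriers, Slc25a22 (GC1), which brings glutamate into mitochondria together with a proton, rose. It had 596, 499.8 and 303 CPM in Lira161, Lira162 and Lira164, against 247, 229.9 and 198 CPM in PBS155, PBS157 and PBS158. The groups did not overlap, and Lira164 was nearest to the PBS libraries. The mean was 466 ± 149 CPM in the liraglutide group and 225 ± 25.1 CPM in the PBS group (SD, n = 3 each), a log2 fold change of 1.05 ± 0.23 (edgeR adjusted p = 0.0333). This was the least stable of the calls. It held in 1 of the 6 fits that left a library out, the one without Lira164, and was lost without Lira161, Lira162, PBS155, PBS157 or PBS158, with adjusted p-values up to 0.121. Across the alternatives the adjusted p began at 2.34e-05. The other glutamate carrier, Slc25a18, had 4 counts over all libraries.

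Slc25a15 (ORC1), which exchanges cytosolic ornithine for citrulline in the urea cycle, had 495, 563 and 331 CPM in the liraglutide libraries, against 324, 319 and 307 CPM in the PBS libraries. All liraglutide values were the higher ones, with Lira164 again the lowest of them. The log2 fold change of 0.55 ± 0.18 did not pass (edgeR adjusted p = 0.0890). It was 0.73 without Lira164 (adjusted p = 0.00501), DESeq2 also called it with all libraries (adjusted p = 0.0231), and the alternatives ranged up to 0.281. Slc25a29, a carrier of basic amino acids, averaged 3.48 ± 0.51 CPM in the liraglutide group and 3.16 ± 0.45 CPM in the PBS group (adjusted p = 0.730). Slc25a44, known for branched-chain amino acid uptake in brown fat, averaged 64.0 ± 3.96 CPM in the liraglutide group and 60.3 ± 4.72 CPM in the PBS group (adjusted p = 0.622). The second ornithine carrier, Slc25a2, had 0, 4 and 4 counts in the liraglutide libraries and 4, 0 and 2 in the PBS libraries and was not tested.

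Of the 8 cofactor carriers, Slc25a32 rose. This carrier is known for bringing folate and FAD into mitochondria. It had 47.5, 62.0 and 45.9 CPM in Lira161, Lira162 and Lira164, against 25.2, 28.4 and 28.1 CPM in PBS155, PBS157 and PBS158. Every liraglutide library lay above every PBS library, and the PBS libraries were close together. The means of 51.8 ± 8.82 CPM in the liraglutide group and 27.2 ± 1.75 CPM in the PBS group gave a log2 fold change of 0.93 ± 0.13 and the smallest adjusted p among the carriers (edgeR, 0.00573). The call held in every fit that left a library out.

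The other cofactor carriers did not pass. Slc25a42, which exchanges coenzyme A for adenine nucleotides, had 166, 138 and 158.2 CPM in the liraglutide libraries and 132, 128 and 109 CPM in the PBS libraries (0.33 ± 0.11, adjusted p = 0.108). Slc25a39 had 495, 466 and 384 CPM in the liraglutide libraries and 334, 390.0 and 365 CPM in the PBS libraries (0.30 ± 0.13, adjusted p = 0.169). The groups did not overlap for Slc25a42 and overlapped for Slc25a39. Slc25a16, a putative coenzyme A carrier, averaged 82.8 ± 0.23 CPM in the liraglutide group and 92.98 ± 4.01 CPM in the PBS group (adjusted p = 0.252). Slc25a51, the NAD carrier, averaged 99.6 ± 26.5 CPM in the liraglutide group and 92.3 ± 11.7 CPM in the PBS group (adjusted p = 0.757). These groups overlapped for Slc25a51 and not for Slc25a16. The S-adenosylmethionine carrier Slc25a26 had a log2 fold change of 0.27 and the Slc25a39 paralog Slc25a40 one of -0.11.

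Slc25a33 (PNC1), which imports pyrimidine nucleotides into mitochondria, rose. It had 52.2, 37.6 and 44.0 CPM in Lira161, Lira162 and Lira164, against 23.9, 28.7 and 20.2 CPM in PBS155, PBS157 and PBS158. The groups did not overlap, at a log2 fold change of 0.88 ± 0.16 (edgeR adjusted p = 0.0130), and the call held in every fit that left a library out. Its exons share 281 bp, 14.9% of their length, with Gm13068, which was not analysed here, and reads in an overlap cannot be assigned where the counting does not use strand. Its paralog Slc25a36 averaged 2.29 ± 0.32 CPM in the liraglutide group and 1.90 ± 0.48 CPM in the PBS group (adjusted p = 0.577). The count ratio of Slc25a33 to Slc25a36 overlapped between the groups. The Slc25a33 promoter window is printed because it is the window of a called carrier that holds an E-box and CRE half-sites beside a CCAAT box, with the marks as above.
Slc25a33, chr4:149774218-149774517, minus strand: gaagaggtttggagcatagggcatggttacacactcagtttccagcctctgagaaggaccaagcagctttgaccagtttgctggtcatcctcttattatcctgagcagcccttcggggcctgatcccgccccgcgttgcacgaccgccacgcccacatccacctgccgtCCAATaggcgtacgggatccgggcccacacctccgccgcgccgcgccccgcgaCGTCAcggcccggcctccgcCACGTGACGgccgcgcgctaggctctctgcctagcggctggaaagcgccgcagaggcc
The E-box, searched as CACGTG, is in 7.15% of all windows. The CRE half-site, the letters TGACG alone, is in 20.8%. In this window a CRE half-site overlaps the E-box.

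Slc25a30 (KMCP1), a relative of the uncoupling proteins, rose. It had 52.4, 43.1 and 52.5 CPM in Lira161, Lira162 and Lira164, against 21.4, 25.9 and 14.9 CPM in PBS155, PBS157 and PBS158. Every liraglutide library lay above every PBS library, and the means were 49.3 ± 5.41 CPM in the liraglutide group and 20.7 ± 5.53 CPM in the PBS group. The log2 fold change was 1.25 ± 0.19 (edgeR adjusted p = 0.00936), and the call held in every fit that left a library out. The related Slc25a27 (UCP4) had 3.16 ± 1.12 CPM in the liraglutide group and 2.01 ± 0.41 CPM in the PBS group (0.66 ± 0.30, adjusted p = 0.202). Slc25a14 had 1.82 ± 0.14 CPM in the liraglutide group and 1.87 ± 0.33 CPM in the PBS group (adjusted p = 0.943).

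The carriers with no settled substrate held the largest differences of the family. Slc25a47 (chromosome 12, 108836046 to 108856815, GRCm38) had 1750.5, 1839 and 1097 CPM in Lira161, Lira162 and Lira164, against 576, 676 and 681 CPM in PBS155, PBS157 and PBS158. No liraglutide library came near the PBS range, though Lira164 was well below Lira161 and Lira162. The means were 1562 ± 405 CPM in the liraglutide group and 645 ± 59.2 CPM in the PBS group (SD, n = 3 each), 2.42-fold higher under liraglutide, with a log2 fold change of 1.28 ± 0.19 (edgeR adjusted p = 0.00754). Slc25a34, an orphan carrier, had 17.8, 25.3 and 14.0 CPM in Lira161, Lira162 and Lira164, against 7.44, 6.85 and 8.93 CPM in PBS155, PBS157 and PBS158. Again the groups did not overlap, at a log2 fold change of 1.302 ± 0.22 (edgeR adjusted p = 0.0114). Both calls held in every fit that left a library out.

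The promoter windows of Slc25a47 and Slc25a34 are printed because they alone, among the windows of called carriers, hold a nuclear receptor half-site. Both also hold a CCAAT box, with the marks as above. Slc25a30 rose 2.38-fold, and its window holds a CCAAT box but no nuclear receptor half-site. The Slc25a47 window lies inside the annotated span of the gene, away from its first base at 108836046.
Slc25a47, chr12:108850879-108851178, plus strand: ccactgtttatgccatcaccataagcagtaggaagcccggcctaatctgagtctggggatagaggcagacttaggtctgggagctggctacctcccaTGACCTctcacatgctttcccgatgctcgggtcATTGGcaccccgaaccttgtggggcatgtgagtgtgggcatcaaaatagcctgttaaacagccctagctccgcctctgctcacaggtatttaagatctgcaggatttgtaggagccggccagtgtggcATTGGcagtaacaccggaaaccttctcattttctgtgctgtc
Slc25a34, chr4:141623785-141624084, minus strand: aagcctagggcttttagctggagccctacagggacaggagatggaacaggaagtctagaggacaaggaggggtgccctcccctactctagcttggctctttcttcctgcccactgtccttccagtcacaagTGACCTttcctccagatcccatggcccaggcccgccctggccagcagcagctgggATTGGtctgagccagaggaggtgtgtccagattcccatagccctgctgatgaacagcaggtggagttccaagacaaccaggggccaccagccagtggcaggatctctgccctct
The nuclear receptor half-site, searched as AGGTCA, is in 16.3% of all windows and in 4 of the 41 windows of described carriers. Besides Slc25a47 and Slc25a34, only Slc25a39 and Slc25a45 among the 31 described carriers with a window have it. In Slc25a34 it is part of the longer ERR half-site AAGGTCA, which 4.72% of all windows hold. No carrier window holds the FOXO motif TGTTTAC, which is in 3.65% of all windows. Searches were for exact letters on both strands, and also covered the GC box GGGCGG (35.7% of all windows, 27 of the 31 carriers, not capitalised) and, by name, DR1 (0.0396%) and NRF1 (0.971%), which no carrier window held.

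Slc25a35, another orphan, fell to 4, 8 and 10 counts in Lira161, Lira162 and Lira164, against 44, 23 and 23 counts in PBS155, PBS157 and PBS158. Every liraglutide library was below every PBS library, at counts that are low throughout. The log2 fold change was -1.98 ± 0.40, a level 3.96-fold lower (edgeR adjusted p = 0.0176). The call was lost without Lira161 (adjusted p = 0.0679) or Lira162 (0.0731), and the alternatives lay between 0.00388 and 0.0731. Its exons share 1151 bp, 31.3% of their length, with the opposite-strand gene Rangrf, and reads from the shared stretch cannot be assigned without strand. Rangrf itself had 0.876 ± 0.073 CPM in the liraglutide group and 0.841 ± 0.137 CPM in the PBS group (adjusted p = 0.938).

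The rest of this group did not pass. Slc25a48, linked to choline import, had 4.53, 3.86 and 5.04 CPM in the liraglutide libraries and 9.42, 5.10 and 5.90 CPM in the PBS libraries. These groups did not overlap, and PBS155 stood above the rest (-0.61 ± 0.24, adjusted p = 0.154). Slc25a46, an outer membrane member that shapes mitochondria, averaged 53.3 ± 2.16 CPM in the liraglutide group and 58.7 ± 2.25 CPM in the PBS group (adjusted p = 0.343). Slc25a45 averaged 21.6 ± 4.88 CPM in the liraglutide group and 25.4 ± 3.33 CPM in the PBS group, and Slc25a53 averaged 0.840 ± 0.379 CPM in the liraglutide group and 0.799 ± 0.199 CPM in the PBS group. Slc25a43 had 1, 2 and 1 counts in the liraglutide libraries and 9, 1 and 0 in the PBS libraries and was not tested. Slc25a54 had no count in any library.

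**Figure D4:**
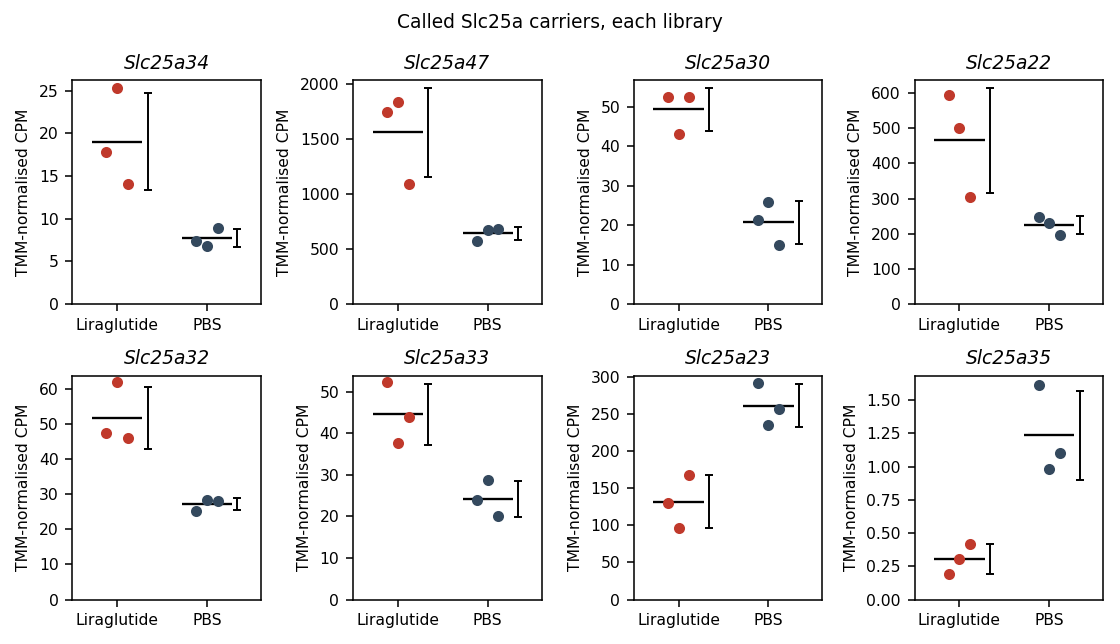
The 8 called carriers in each library, as TMM-scaled CPM, liraglutide left and PBS right, with a line at the group mean and a bar of ± 1 SD (n = 3 each). The groups do not overlap in any panel, and the lowest liraglutide point of Slc25a47, Slc25a34 and Slc25a22 is Lira164.

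The iron and heme carriers did not pass. Slc25a37 (mitoferrin-1), the iron importer of red cell precursors, had 30.4, 23.7 and 32.4 CPM in the liraglutide libraries, against 40.7, 41.4 and 33.1 CPM in the PBS libraries. The groups did not overlap, though Lira164 and PBS158 were close (log2 fold change -0.42 ± 0.14, edgeR adjusted p = 0.0961). Without Lira164 it passed (adjusted p = 0.0464), and the alternatives ranged up to 0.274. Its paralog Slc25a28 (mitoferrin-2) averaged 18.2 ± 2.62 CPM in the liraglutide group and 18.8 ± 1.82 CPM in the PBS group. Slc25a38, the glycine carrier of heme synthesis, averaged 20.1 ± 1.01 CPM in the liraglutide group and 20.1 ± 1.197 CPM in the PBS group (adjusted p = 0.982). The erythroid marker list summed to 17.7 to 39.8 CPM in the liraglutide libraries and 77.2 to 91.0 CPM in the PBS libraries. Nearly all of it was Alas2, at 30.2 ± 11.3 CPM in the liraglutide group and 84.1 ± 6.89 CPM in the PBS group, while Hba-a1, Hba-a2 and Hbb-b1 were listed at 0 in every library. Its part in the Slc25a37 values was not tested.

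**Figure D5:**
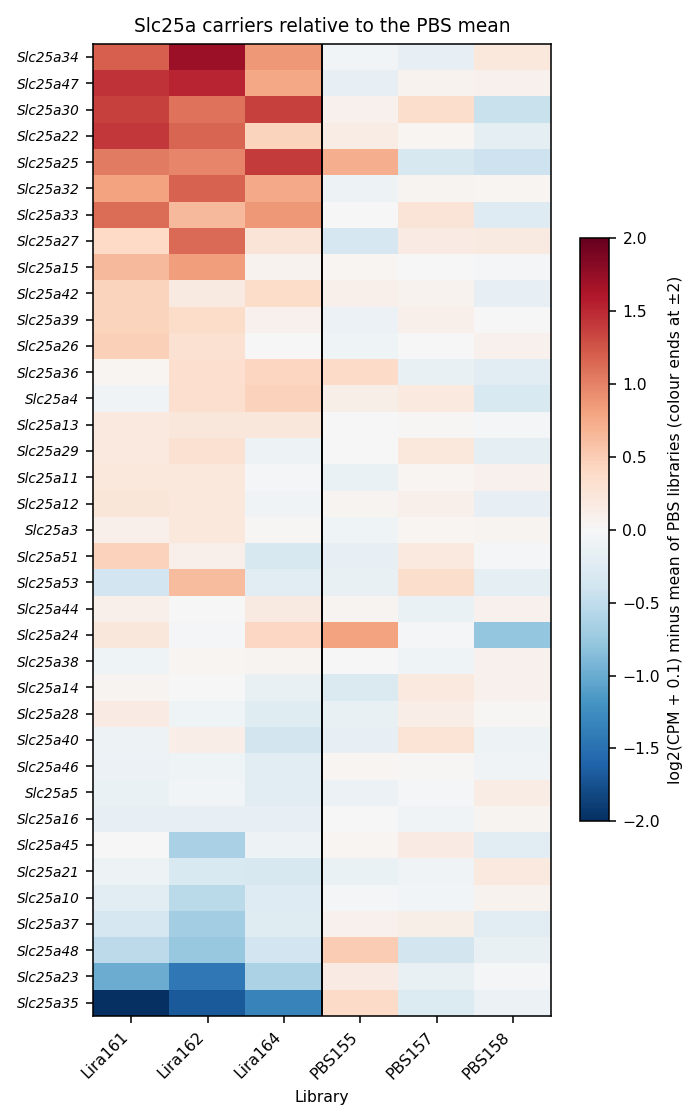
The same 37 carriers in each library, as log2(CPM + 0.1) minus its mean over the PBS libraries, ordered by fold change, liraglutide libraries left of PBS libraries. Slc25a34, Slc25a47, Slc25a30 and Slc25a22 are the top lines and Slc25a23 and Slc25a35 the bottom ones, and PBS155 departs from PBS157 and PBS158 for Slc25a25, Slc25a24 and Slc25a48.

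Of 11 paralog pairs, 9 had enough counts for a ratio and 5 did not overlap between the groups. Besides Slc25a23 to Slc25a25, these were Slc25a10 to Slc25a11 (log2 difference -0.47, liraglutide minus PBS), Slc25a24 to Slc25a25 (-0.91), Slc25a39 to Slc25a40 (0.41) and Slc25a16 to Slc25a42 (-0.49). Each had the smallest exact two-sided permutation p of 0.10, or 0.18 adjusted over the 9 pairs. Pairs with Slc25a25 share its counts. Slc25a10, Slc25a16, Slc25a23, Slc25a25 and Slc25a42 also did not overlap as single genes, as was so for 31.3% of all tested genes. No such share was obtained for ratios of other genes. The 4 other pairs overlapped: Slc25a4 to Slc25a5, Slc25a12 to Slc25a13, Slc25a33 to Slc25a36 and Slc25a37 to Slc25a28.

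All 44 members together summed to 6016, 5922 and 4799 CPM in Lira161, Lira162 and Lira164, against 4039.9, 4051 and 4010.4 CPM in PBS155, PBS157 and PBS158. The PBS libraries were nearly equal, and every liraglutide library was higher. The group means were 5579 ± 677 CPM under liraglutide and 4034 ± 20.9 CPM under PBS, a ratio of 1.38, or 1.43 in CPM without TMM factors. Slc25a47 made up 27.7% ± 4.28 of the family's counts in the liraglutide group and 16.0% ± 1.49 in the PBS group. Without Slc25a47 the sums averaged 4017 ± 287 CPM in the liraglutide group and 3389 ± 68.3 CPM in the PBS group, a ratio of 1.19. These sums were not tested.

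The partners of these carriers were counted in the same fit, over 9 pathway lists. Their counts stand beside 4.08% of all tested genes called higher, 4.69% called lower and 8.77% called either way, and a list with a share near these does not stand apart. In the list of redox shuttle enzymes 2 of 8 rose and 1 fell (median log2 fold change 0.27). This list covers the malate-aspartate and glycerophosphate shuttles and also counts Ldha, which is in neither. Gpd2, the mitochondrial glycerophosphate dehydrogenase (0.76 ± 0.10, adjusted p = 0.00457), and Ldha, a lactate dehydrogenase subunit (0.81 ± 0.15, adjusted p = 0.0127), rose. Mdh1, the cytosolic malate dehydrogenase, fell (-0.46 ± 0.11, adjusted p = 0.0303). Beside Slc25a15 and Slc25a22, 3 of the 11 tested genes of the urea cycle and of ornithine or glutamate handling fell (median -0.20). Otc, which makes the citrulline that Slc25a15 exports, fell to 224 ± 62.0 CPM in the liraglutide group, against 459 ± 39.7 CPM in the PBS group (adjusted p = 0.0177). The other tested enzymes of the cycle itself, Cps1 (0.86 ± 0.27), Asl (0.66 ± 0.31) and Arg1 (0.24 ± 0.29), were above 0 and did not pass. Ass1 was listed at 0.171 CPM in the liraglutide group and 0.0408 CPM in the PBS group and was not tested. Gls2, the liver glutaminase that makes glutamate in mitochondria, fell to 124 ± 17.05 CPM in the liraglutide group, against 249.6 ± 13.2 CPM in the PBS group (adjusted p = 0.00391). Prodh, the proline dehydrogenase, also fell (-1.09 ± 0.13, adjusted p = 0.00399).

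Beside the folate carrier Slc25a32, 2 of 10 mitochondrial folate, serine and glycine genes fell (median -0.30). These were Sardh (-0.88 ± 0.15, adjusted p = 0.0114) and Dmgdh (-0.77 ± 0.15, adjusted p = 0.0175), which pass one-carbon units from sarcosine and dimethylglycine to folate. Beside the coenzyme A and NAD carriers, 3 of 17 cofactor genes rose and 1 fell (median 0.00). Nnt, a proton-driven transhydrogenase of which C57BL/6J mice carry a truncated form, rose (0.71 ± 0.11, adjusted p = 0.00723), as did Ppcs of coenzyme A synthesis (0.71 ± 0.13, adjusted p = 0.0120) and the NAD kinase Nadk (0.47 ± 0.10, adjusted p = 0.0244). Beside the iron carriers, Alas2 (-1.48 ± 0.28, adjusted p = 0.0263) and Tmem14c (-0.52 ± 0.10, adjusted p = 0.0161) were the 2 of 17 iron-sulfur and heme genes that fell (median -0.02).

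Among 28 other mitochondrial transporters 3 rose and 2 fell (median 0.06). Ucp2, a relative of the carriers outside the Slc25a symbols (0.85 ± 0.17, adjusted p = 0.0219), and Mpc1, a subunit of the pyruvate carrier (0.47 ± 0.11, adjusted p = 0.0325), rose. Sfxn5 (-0.50 ± 0.13, adjusted p = 0.0412) and Abcb10 (-0.58 ± 0.15, adjusted p = 0.0440) fell, and the third to rise was Tomm20, a protein import receptor. In the tricarboxylic acid cycle 1 of 18 genes, the fumarase Fh1, rose (0.56 ± 0.14, adjusted p = 0.0367), a share near the 4.08% of all tested genes. Of 16 ATP synthase subunits edgeR, DESeq2 and limma-voom each called 0, with 1 at an unadjusted p under 0.05 and a median of -0.12. Of 14 regulators of mitochondrial genes the same 3 tools called 0, with 0 at an unadjusted p under 0.05. Among these, Ppargc1a, a coactivator of mitochondrial biogenesis, had a log2 fold change of 0.60 ± 0.31 (adjusted p = 0.287). It had 22.3, 30.2 and 11.8 CPM in Lira161, Lira162 and Lira164, against 14.2, 13.6 and 14.6 CPM in the PBS libraries, so Lira164 was below every PBS library. Of the list genes named above as having risen or fallen, Tomm20 aside, Gpd2, Ldha, Gls2, Prodh and Nnt passed in every fit that left a library out. Each of the others lost its call without at least 1 library, with adjusted p-values up to 0.149 for Abcb10.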

How the data were processed

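Liver RNA of 6 libraries, 3 per group, was analysed from the raw gene-level read counts the authors deposited. Per the submitters' processing notes the tools and build include STAR and mm10; the counting program, its strand setting and its handling of shared reads have no mention there. No further step of the authors is recorded. The carriers, pathway lists and tests were chosen with earlier results of these data known.

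Counts were tested with edgeR 4.0.16 in R 4.3.3 (filterByExpr, TMM factors, robust quasi-likelihood fit, group as the only term), with the Benjamini-Hochberg adjustment over 12626 tested genes of 16949 with a count, and a threshold of 0.05. The SE is the log2 fold change divided by the square root of F. The code was tested on simulated data. The common biological coefficient of variation was 0.157. Within groups, every pair of libraries differed beyond sampling noise. Exon lengths and positions came from the GRCm38 annotation, and promoter windows from RefSeq GRCm38.p6, in which 31 of 41 described and 6 of 8 called carriers matched by symbol. Paralog ratios were tested with exact permutation tests. Alternatives were other scalings and filters, DESeq2 1.42.0, limma-voom (limma 3.58.1) and leaving out each library.

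Named in full were every called carrier, the 8 uncalled carriers with the highest level per kilobase, the 8 uncalled carriers with the smallest p (11 carriers in all), and up to 4 called genes of each pathway list; 1 carrier that did not pass and 1 list gene are not reported here. Tomm20, Ppargc1a, Cps1, Asl, Arg1, Ass1, Rangrf and the single cell type markers fall outside this rule and were named after their values were seen. Columns were assigned to groups by their names, which carry no triplicate number.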

Additional observations from a re-analysis of the deposited data

How the results depend on the processing

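None of the called carriers, the other carriers named in full and the pathway genes named by the rule changed direction, whether all libraries were kept or one was left out. Under the alternatives that kept every library, 14 of 415 values moved or changed side. The count of carriers that fell was 1, against 2, with a mean of at least 5 CPM required, a filter that Slc25a35 does not reach. For other mitochondrial transporters the count that fell was 0 with library totals and 1 with that filter. DESeq2 called 1 tricarboxylic acid cycle gene lower, 1 urea cycle or glutamate gene higher and 3 cofactor genes lower (against 1), and without the low-count filter 2 cofactor genes and 1 iron-sulfur or heme gene were called lower. The causes were not tested.

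With one library left out, the carriers that rose numbered 5 to 7 and those that fell 0 to 3. Over all genes the calls ranged between 393 (without Lira162) and 1496 (without Lira164), against 1107 with all libraries; they were 462 without Lira161, 653 without PBS157 and 414 without PBS158. The pathway counts varied too. Cofactor genes numbered 1 to 3 higher and 0 to 4 lower. Iron-sulfur or heme genes numbered 0 to 2 lower, and folate genes 0 to 3 lower. Other transporters numbered 0 to 5 higher and 0 to 1 lower, and redox shuttle genes 2 to 3 higher and 0 to 1 lower. Regulators numbered 0 to 1 higher, and tricarboxylic acid cycle genes 0 to 1 higher and 0 to 1 lower. Urea cycle genes numbered 0 to 3 higher and 2 to 4 lower. Named pathway genes lost their calls without Lira161 (Abcb10, Dmgdh, Fh1, Mdh1, Mpc1, Nadk, Otc, Sardh, Ucp2), Lira162 (Abcb10, Dmgdh, Fh1, Mdh1, Mpc1, Nadk, Ppcs, Sfxn5, Tmem14c, Ucp2), Lira164 (Alas2, Sfxn5), PBS155 (Abcb10, Alas2, Fh1, Mpc1, Nadk, Sfxn5, Ucp2), PBS157 (Abcb10, Alas2, Mdh1, Mpc1, Nadk, Sfxn5) or PBS158 (Abcb10, Alas2, Fh1, Mdh1, Mpc1, Nadk, Otc, Sfxn5, Tmem14c). A fit with 2 libraries in a group has less to estimate the spread from.

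No paired analysis was possible because the count columns carry no triplicate number that ties them to the labels. Slc25a2, Slc25a31 and Slc25a43 had counts near the detection floor and did not reach the filter, so no difference is reported for them.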
